A study of Mus musculus with 27 samples.

Results

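The comparison described here set 3 mouse embryonic stem (ES) cell libraries carrying a mutated SPOC domain of Spen (labelled SPOCmut, clones C10, C2 and G1) against 2 libraries of a line labelled SpenKO, all after 24 h of doxycycline. These 5 libraries were chosen by their labels, from 17 libraries in the X-chromosome table used here and 27 samples in the whole series, and every one of the 270 X-linked genes in that table was compared. Each line was also read against its own libraries without doxycycline (3 SPOCmut and 2 SpenKO), and the parental line (WT, 2 libraries without doxycycline, 2 after 3 h and 2 after 24 h) served as a reference for the full response. The SpenKO line is called SpenRRM in the series text, and the SPOC line SpenSPOCmut.

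All of these groups are female ES cells of a 129S X Cast cross. In all of them, controls included, the labels place a TetOn promoter before Xist on the 129S X chromosome and a Bgl stem-loop array at the 3' end of Xist, so that doxycycline (1.0 to 1.5 µg/mL) turns Xist on from that chromosome. The sample titles of WT and SpenKO carry the name BglHalo, and those of SPOCmut do not. Whether the lines differ in this respect was not tested. Mouse fibroblasts inactivated with mitomycin served as the feeder layer. The 3 SPOCmut replicates are separate clones. For SpenKO no separate clones are named, so line and genotype cannot be told apart there, and p-values measure the spread between libraries, which may be technical.

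Xist RNA, a long noncoding transcript, spreads over the chromosome it is made from and starts the silencing of genes there. SPEN is a large nuclear repressor that binds Xist RNA through its RNA recognition motifs (RRM). Its SPOC domain, at the other end of the protein, contacts corepressors. The comparison asks about silencing by Spen that does not need SPOC. How much function the mutated SPOC keeps, and how much of Spen the line labelled SpenKO keeps, was not tested here.

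The measurement is the allelic ratio of chromatin-associated RNA, the RNA that stays on chromatin during nuclear extraction and is rich in nascent transcripts. The deposited ratio is read here as the share of allele-assigned reads that came from 129S, because Xist lay between 0.933 and 0.999 in every library. A value of 0.5 is equal RNA from both X chromosomes, and a fall after doxycycline is a smaller share from the X that carries induced Xist. From a ratio alone, less RNA from the 129S X cannot be told apart from more RNA from the Cast X. Nor can a change in the RNA of each cell be told apart from a change in the mix of cells. No read counts come with the ratios, so depth is unknown. Levels of ES cell or fibroblast markers, of Xist RNA and of Spen itself were not analysed here.

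After 24 h the SPOCmut clones sat lower than SpenKO over the X as a whole. The median ratio over 270 genes was 0.443 in C10, 0.449 in C2 and 0.446 in G1. In SpenKO it was 0.503 and 0.506. The groups did not overlap, and the median was 0.0584 lower in SPOCmut, with 0.446 ± 0.00296 (SD, n = 3) against 0.504 ± 0.00173 (SD, n = 2). An exact permutation test, made two-sided by doubling the smaller tail, gave p = 0.2. This is the smallest value that this form of the test allows with 3 against 2 libraries. Without doxycycline the medians lay close, at 0.517 ± 0.00460 in SPOCmut (SD, n = 3) and 0.515 ± 0.00505 in SpenKO (SD, n = 2). WT was at 0.298 ± 0.00968 at 24 h (SD, n = 2), below both lines. At the shorter time of 3 h, for which SPOCmut has no library here, WT was at 0.483 ± 0.00228 (SD, n = 2) and the only SpenKO library at 0.515.

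**Figure D1:**
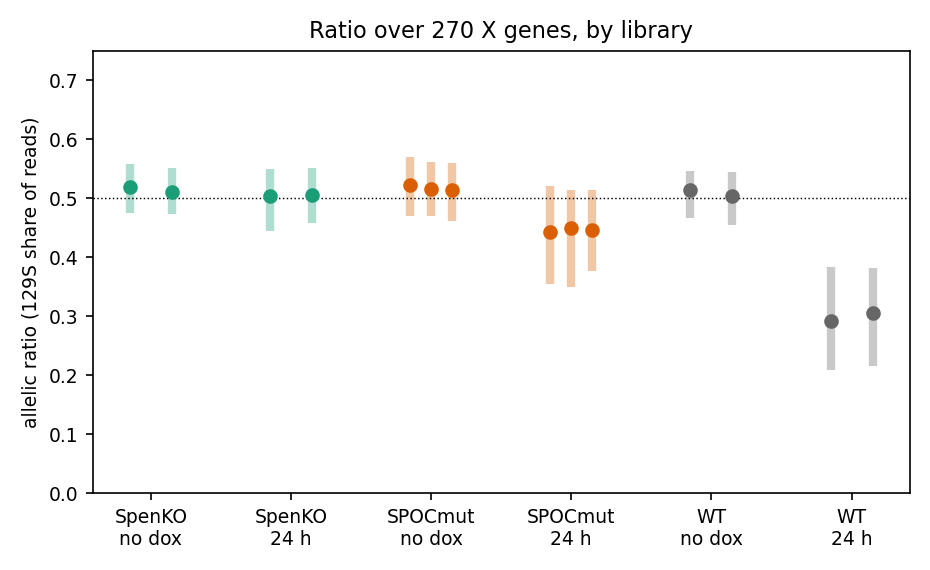
Median allelic ratio over 270 X genes in each library (points, y axis, 129S share of reads) with the range from the first to the third quartile over genes (bars), by line and treatment (x axis). The 3 SPOCmut libraries at 24 h lie from 0.443 to 0.449, between the SpenKO libraries near 0.504 and the WT libraries near 0.298.

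Gene by gene, 110 of 270 genes (40.7%) had a lower ratio in SPOCmut than in SpenKO at 24 h and 3 genes (1.11%) a higher one, in limma at an adjusted p under 0.05. The median difference over all genes was -0.0494, with 230 genes below 0 and 40 above. All 3 SPOCmut libraries lay below both SpenKO libraries in 154 genes (57%) and above both in 9 genes (3.33%). The half-width of the 95% interval of a gene's difference had a median of 0.0541, so differences of the size of the median were resolved for the tighter genes only. The number of lower genes was 75 without the first SpenKO 24 h library and 66 under Benjamini-Yekutieli adjustment.

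**Figure D2:**
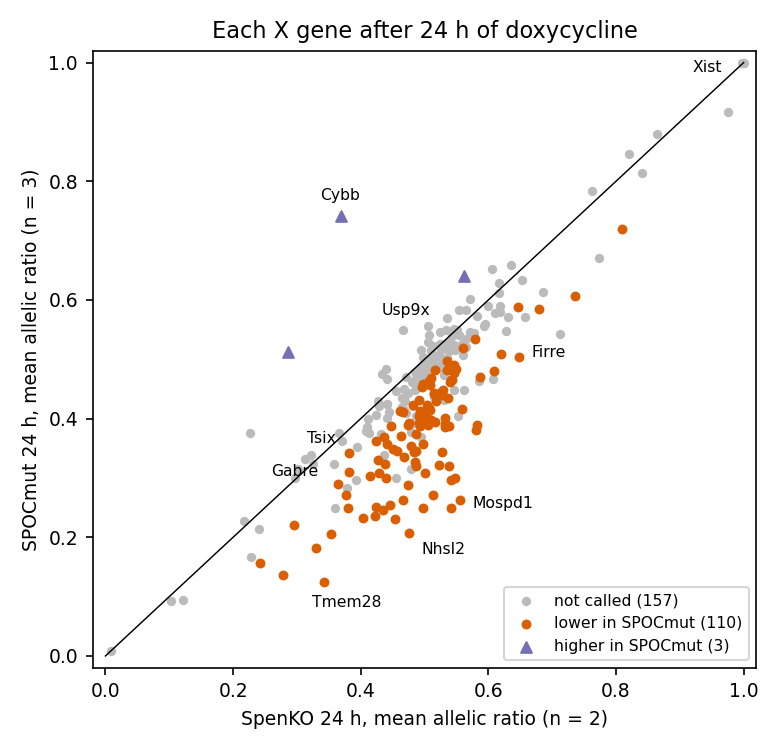
Mean allelic ratio of each X gene at 24 h in SpenKO (x axis, n = 2 libraries) and in SPOCmut (y axis, n = 3 clones), with the line of equality. The 110 genes called lower in SPOCmut (orange) lie below the line, the 3 called higher (triangles) above it, and 157 grey genes were not called.

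The largest shortfalls were in 10 genes of varied function, which range in their difference from -0.292 to -0.219. Mospd1 (chromosome X, 53344593 to 53370559, mm10) had ratios of 0.291, 0.205 and 0.293 in C10, C2 and G1, against 0.526 and 0.584 in SpenKO. Its difference was -0.292 ± 0.0344 (SE, adjusted p = 8.21e-05 in limma). The clones were far below both SpenKO libraries, and near the WT mean of 0.236.

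Nhsl2 (chromosome X, 101849384 to 102092055), a relative of the actin regulator NHS, had ratios of 0.209, 0.186 and 0.227 in the clones and 0.466 and 0.484 in SpenKO. The difference was -0.268 ± 0.0164 (SE, adjusted p = 1.18e-06). The clones stood close together here, between SpenKO and the WT mean of 0.0599. Smarca1 (chromosome X, 47809369 to 47892552), the ATPase of an ISWI chromatin remodeller, read 0.333, 0.320 and 0.234 in the clones, and 0.613 and 0.471 in SpenKO. Its difference was -0.246 ± 0.0538 (SE, adjusted p = 0.00427), and the groups did not overlap although the SpenKO libraries differed widely. Without the first SpenKO library, Smarca1 and Zc4h2 kept their direction (-0.175 and -0.204) but were no longer called.

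Plxna3, a coreceptor for semaphorins, read 0.368, 0.355 and 0.239 in the clones against 0.556 and 0.522 in SpenKO, with a difference of -0.219 ± 0.0357 (SE, adjusted p = 0.000768). Every clone was below every SpenKO library. Zc4h2, a zinc finger gene, differed by -0.241 and Tmem28 by -0.219.

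Tmem28 held the lowest ratios of these 10 genes, at 0.114, 0.0833 and 0.174 in the clones and 0.338 and 0.348 in SpenKO. Its means without doxycycline were already apart, at 0.370 in SPOCmut and 0.515 in SpenKO (difference -0.145, adjusted p = 0.418), and the difference of its responses, -0.0740, did not pass the test. The calls of Dnase1l1, L1cam and AW822252 depended on single libraries. Dnase1l1 differed by -0.292, but its clones read 0.167, 0.143 and 0.44, and the call was lost without either SpenKO library or without C10 or C2. L1cam, an adhesion molecule of growing axons, differed by -0.248, a call lost without C2 or the second SpenKO library. The locus AW822252 differed by -0.224, a call lost without C10, C2 or either SpenKO library.

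**Figure D3:**
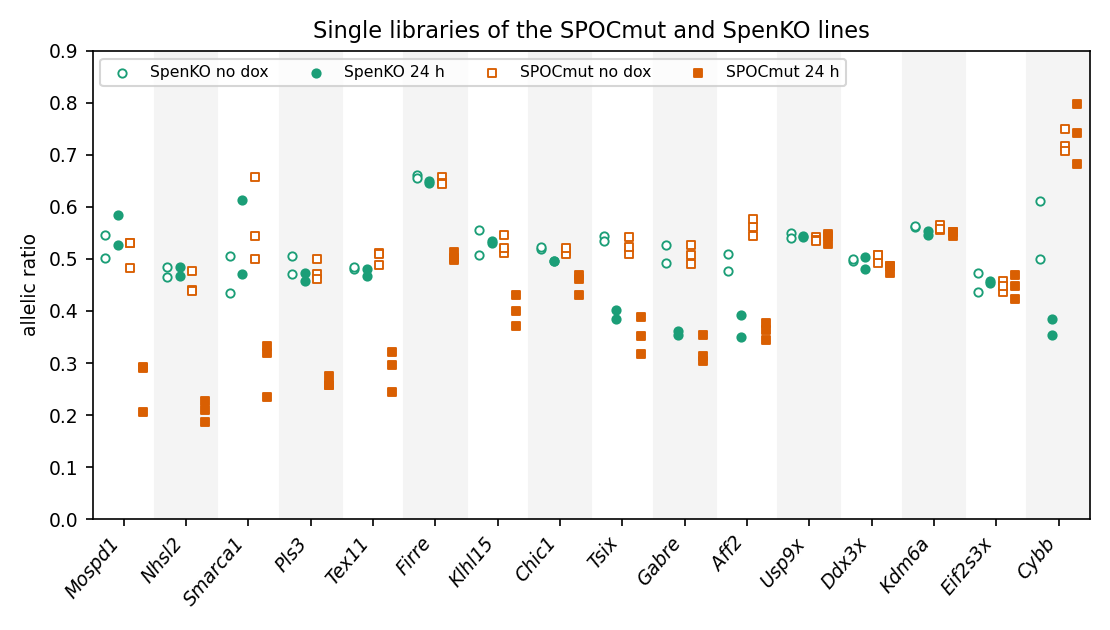
Allelic ratio (y axis) of 16 genes named in the text (x axis) in every SpenKO (circles) and SPOCmut (squares) library, without doxycycline (open) and at 24 h (filled). The filled squares drop away from the other symbols from Mospd1 to Klhl15, the filled symbols of both lines drop in Tsix, Gabre and Aff2, and the symbols of Usp9x, Kdm6a and Eif2s3x stay together.

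Each line was then read against its own untreated libraries. In SPOCmut 134 genes fell (49.6%) and 0 rose (0%), with a median change of -0.0658 over all genes, 251 of them below 0 and 17 above. In SpenKO 2 genes fell (0.741%) and 0 rose (0%), with a median change of -0.00937, 182 genes below 0 and 87 above. At an unadjusted p under 0.05 the counts were 148 lower and 1 higher in SPOCmut, and 18 lower and 1 higher in SpenKO. The SpenKO test had 2 libraries a side and a median half-width of the 95% interval of 0.0593. Falls below that size were mostly not detectable there even at an unadjusted p under 0.05. The limit for a call at an adjusted p was higher, since larger SpenKO changes at Aff2 and Eda, given below, were not called.

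The responses were tested against each other as an interaction. The change was lower in SPOCmut than in SpenKO in 62 genes (23%) and higher in 0 (0%), with a median difference of -0.0571 (100 and 0 genes at an unadjusted p under 0.05). Of these 62 genes, 61 were also called in the direct comparison at 24 h and in the SPOCmut response. Another 7 genes were lower in the direct comparison at 24 h and in neither other test. The interaction uses the libraries of both other tests, in the same fit. Much of this overlap is therefore built in, and it is not independent support for the calls. Without the first SpenKO 24 h library the interaction count was 41. Before doxycycline, 0 of 270 genes (0%) differed between the lines in either direction in limma. At an unadjusted p under 0.05, 6 were lower and 15 higher in SPOCmut, and the smallest adjusted p was 0.0686.

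The largest differences of response were in Smarca1, Mospd1 and Zc4h2, followed by Fam3a, Nhsl2, Plxna3, Tex11, Maged1, Gspt2 and Pls3. Pls3 (chromosome X, 75785653 to 75874574) encodes an actin-bundling plastin. It went from 0.471, 0.501 and 0.461 to 0.257, 0.258 and 0.275 in C10, C2 and G1, while SpenKO read 0.507 and 0.471 before and 0.473 and 0.458 after. The difference of responses was -0.191 ± 0.0304 (SE, adjusted p = 0.00151), and each clone changed by more than the spread among clones. Tex11, a meiotic recombination gene (chromosome X, 100838647 to 101059639), went from 0.488, 0.512 and 0.510 to 0.297, 0.244 and 0.322 in the clones. In SpenKO it stayed between 0.467 and 0.485 in all 4 libraries, and the difference of responses was -0.207 ± 0.0297 (SE, adjusted p = 0.000903).

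Maged1, a member of the MAGE family, went from a mean of 0.542 to 0.389 ± 0.0504 in the clones (SD, n = 3), whereas the SpenKO means were 0.529 and 0.582. Gspt2, which encodes a translation termination factor, went from 0.461 to 0.319 ± 0.00652 (SD, n = 3) and had SpenKO means of 0.429 and 0.486. Fam3a went from 0.607 to 0.344 ± 0.0358 (SD, n = 3), against 0.533 and 0.527 in SpenKO. In all 3 genes the SpenKO change did not pass the test. The interaction calls of Gspt2, Fam3a and Zc4h2 were lost under Benjamini-Yekutieli adjustment and in several runs without a library, with values of -0.175 or lower in those runs.

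The 2 genes called in the SpenKO response, Tsix and Gabre, had a line difference at 24 h that did not pass the test. Tsix (chromosome X, 103431516 to 103484957), the antisense partner that overlaps Xist, read 0.509, 0.542 and 0.522 before and 0.352, 0.317 and 0.389 after doxycycline in the clones. In SpenKO it read 0.543 and 0.535 before and 0.403 and 0.385 after, so both lines shifted without overlap with their own controls. Tsix fell by 0.172 in SPOCmut (adjusted p = 1.39e-05 in limma) and by 0.145 in SpenKO (adjusted p = 0.00900), and the WT mean went from 0.510 to 0.214.

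The line difference of Tsix at 24 h was -0.0412 (95% interval -0.0839 to 0.00153, adjusted p = 0.115). Without G1 it was -0.0593 and was called. Whether the counting used strand is not given in the sources used here, so reads of Tsix and Xist cannot be told apart with certainty. Gabre (chromosome X, 72257431 to 72274721), the epsilon subunit of GABA-A receptors, read 0.354, 0.304 and 0.313 in the clones at 24 h and 0.354 and 0.362 in SpenKO. It fell by 0.184 in SPOCmut (adjusted p = 4.35e-05) and by 0.152 in SpenKO (adjusted p = 0.0212), from means of 0.508 and 0.510. The 24 h difference of -0.0341 (95% interval -0.0877 to 0.0196, adjusted p = 0.303) did not pass the test.

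The SpenKO calls of Tsix and Gabre rested on all libraries of the fit. Both were lost with only the libraries of that comparison, with the replicate block, and without the second untreated or either 24 h SpenKO library. Aff2, a transcription elongation factor gene, had untreated means of 0.561 in SPOCmut and 0.492 in SpenKO. It read 0.364, 0.344 and 0.377 in the clones and 0.393 and 0.350 in SpenKO at 24 h. From its own controls it fell by 0.199 in SPOCmut (adjusted p = 2.53e-05) and differed by -0.121 in SpenKO (adjusted p = 0.0834), a change called only with library weights among the alternatives run.

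Lower SpenKO means at 24 h that were not called in the main fit also occurred at 2 genes, chosen after their values were seen. Eda, the ectodysplasin ligand, went from 0.480 to 0.236 in SPOCmut and from 0.492 to 0.422 in SpenKO, with 0.182 in WT at 24 h. Its SpenKO change of -0.0696 had an adjusted p of 0.110 and was called with library weights only, and the difference of responses was -0.174 ± 0.0214 (SE, adjusted p = 0.000478). The histone deacetylase gene Hdac8 went from 0.549 to 0.344 in SPOCmut and from 0.540 to 0.483 in SpenKO. Its SpenKO change was not called in the main fit or under any alternative. The difference of responses of Hdac8 was -0.147 ± 0.0270 (SE, adjusted p = 0.00372 in limma).

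At other genes the WT mean was much lower after doxycycline while neither SPOCmut nor SpenKO was called. The WT mean was lower by at least 0.15 in 192 genes. SPOCmut was called lower than SpenKO at 24 h in 96 of them, beside 110 of all 270 genes. In 20 of the 192 the mean change of SPOCmut was above -0.02, beside a median change of -0.0658 over all genes. These 20 were picked by size and not by a test. They include Hprt, called lower than SpenKO at 24 h, and Eras and F8, called higher. At some of them the clones differed widely, such as Pgrmc1 (SD of the change over clones 0.177). Usp9x (chromosome X, 13071497 to 13173327), a deubiquitinase, read 0.548, 0.543 and 0.529 in the clones and 0.544 and 0.543 in SpenKO at 24 h, against 0.359 in WT. Its line difference was -0.00326 (95% interval -0.0223 to 0.0158), so a shortfall above 0.0223 lies outside the interval. Bcap31, an endoplasmic reticulum protein, read 0.523, 0.521 and 0.521 in the clones and 0.536 and 0.516 in SpenKO, against 0.270 in WT, with a difference of -0.00489 (95% interval -0.0292 to 0.0194).

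Pcyt1b, an enzyme of phosphatidylcholine synthesis, had means of 0.478 in SPOCmut and 0.485 in SpenKO, far above the WT mean of 0.177. Without C2 at 24 h its SPOCmut change was -0.0573 and was called. Of 3 further genes picked by the same smallest-difference rule, Pqbp1, Pgrmc1 and Nap1l2, the 95% intervals ran from about as far below as above 0 (for Pgrmc1 from -0.232 to 0.236), so nothing is shown about them. Of genes chosen after their values were seen, 3 were also called in neither line. The Mediator subunit gene Med14 was at 0.527 in SPOCmut and 0.537 in SpenKO, with 0.347 in WT. Pdzd4 was at 0.590 and 0.599, with 0.263 in WT, and the RNA-binding protein gene Nono at 0.602 and 0.572, with 0.350 in WT.

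The 3 genes with a higher ratio in SPOCmut at 24 h were Cybb, Eras and F8, and none of them was called in the SPOCmut response to doxycycline. Cybb (chromosome X, 9435253 to 9469324), a subunit of the phagocyte NADPH oxidase, read 0.742, 0.683 and 0.797 in the clones and 0.353 and 0.385 in SpenKO. The difference was 0.372 ± 0.0675 (SE, adjusted p = 0.00130). Untreated, Cybb was at 0.725 in SPOCmut and 0.556 in SpenKO. The difference of responses of 0.203 (adjusted p = 0.15) passed the test only with the fit limited to the libraries of that comparison. Within the SpenKO line the ratio of Cybb varied widely, at 0.50 and 0.611 without doxycycline and 0.945 in the only 3 h library. Eras, a Ras gene expressed in ES cells, was at 0.513 against 0.286, and F8, a clotting factor gene, at 0.640 against 0.563. Both calls were lost without the first SpenKO library or without C10, and that of Eras also without C2, without G1 and on the logit scale.

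Gene lists were read by their counts, next to 40.7% of all genes lower at 24 h, a median difference of -0.0494 and 134 of 270 genes fallen in SPOCmut. Among 4 measured genes of the X inactivation centre, 1 was lower in SPOCmut. This was Chic1 (chromosome X, 103356475 to 103396118), with 0.430, 0.462 and 0.468 in the clones and 0.497 and 0.496 in SpenKO. Its difference of -0.0430 ± 0.0137 (SE, adjusted p = 0.0276) was lost without C10 or either SpenKO library. Xist was at 0.998, 0.999 and 0.999 in the clones and at 0.998 and 0.999 in SpenKO, a difference of -0.00022 (95% interval -0.0320 to 0.0316). Without doxycycline its ratio was already 0.974, 0.958 and 0.976 in the clones and 0.991 and 0.933 in SpenKO. The ratio of Xist thus does not measure how much Xist RNA each line made, which was not tested here. Nap1l2 had no call. Without Xist, the median of the other 3 was -0.0412.

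Of 8 measured genes known to escape X inactivation, 2 were lower in SPOCmut, with a list median of -0.0149. Firre (chromosome X, 50555743 to 50635258), a noncoding RNA locus, read 0.498, 0.512 and 0.501 in the clones and 0.645 and 0.649 in SpenKO. The difference was -0.143 ± 0.00887 (SE, adjusted p = 1.18e-06) and that of the responses -0.134 ± 0.0125 (SE, adjusted p = 8.26e-05). Since Firre started at 0.649 in SPOCmut and 0.658 in SpenKO, its value near 0.5 in the clones was a fall of 0.145. The Dxz4 transcript 4933407K13Rik was the other, at 0.414 against 0.509. Its difference of responses was not called in the main fit or under any alternative. In WT at 24 h the change was -0.399 at Firre and -0.219 at 4933407K13Rik. The histone demethylase gene Kdm6a was at 0.549 and 0.550, with 0.526 in WT. The RNA helicase gene Ddx3x was at 0.481 and 0.492, with 0.348 in WT, and the initiation factor gene Eif2s3x at 0.447 and 0.456, with 0.391 in WT. None of these 3 was called in either line.

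Chromatin and transcription regulators had 13 of 34 members lower (38.2%), with a median of -0.0427. Besides Smarca1 and Hdac8 these include Med12. Mamld1 went the other way without a call, at 0.375 in SPOCmut and 0.227 in SpenKO (adjusted p = 0.0608). RNA processing and translation genes had 6 of 21 members lower (28.6%) and a median of -0.0196. In this list the splicing-associated gene Gpkow read 0.332, 0.330 and 0.345 in the clones and 0.465 and 0.470 in SpenKO, a difference of -0.132 ± 0.0152 (SE, adjusted p = 8.21e-05). Ubiquitin and proteolysis genes had 3 of 11 lower (27.3%) and a median of -0.0250. Among them Klhl15, an adaptor of a cullin ligase, read 0.40, 0.371 and 0.430 in the clones against 0.530 and 0.534 in SpenKO. Pja1, a ubiquitin ligase gene, was at 0.269, 0.423 and 0.60 in the clones and was not called.

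Metabolic and mitochondrial enzymes and transporters had 17 of 36 members lower (47.2%), 1 higher (Cybb) and a median of -0.0812. Phka1, a regulatory subunit of phosphorylase kinase, read 0.231, 0.232 and 0.292 in the clones and 0.402 and 0.446 in SpenKO, a difference of -0.172 ± 0.0242 (SE, adjusted p = 0.000289). Signalling genes had 11 of 18 members lower (61.1%) with a median of -0.0997, and neural and synaptic genes 12 of 20 (60%) with -0.0815. The signalling and neural lists share members, such as Dlg3 and Cask. In WT the median change was -0.163 in the metabolic, -0.221 in the signalling and -0.280 in the neural list, beside -0.197 over all genes. In the neural list Dmd, the dystrophin gene, read 0.335, 0.340 and 0.359 in the clones and 0.455 and 0.457 in SpenKO (difference -0.111 ± 0.0113, SE, adjusted p = 5.02e-05). Pluripotency, early development and germline genes had 7 of 19 lower (36.8%) with a median of -0.0375. Nr0b1, an orphan receptor active in ES cells, read 0.201, 0.25 and 0.249 in the clones and 0.406 and 0.402 in SpenKO, a difference of -0.171 ± 0.0389 (SE, adjusted p = 0.00558). Rhox6, a homeobox gene of a family with close copies, was at 0.228 and 0.217 and had no call.

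Genes typical of fibroblasts, the kind of cell used as feeder, had 8 of 12 measured members lower (66.7%) and a median of -0.140. Their WT median change was -0.279, beside -0.197 over all genes. Pls3, Cd99l2, Flna, Msn, Fhl1, Zfp185, Maged1 and L1cam were the 8 lower in SPOCmut. ES cells express several of these too, and no levels were available to compare. With all 12 genes left out, 102 genes remained lower and the difference of medians was -0.0559. The part of feeder RNA in the ratios of these 12 genes was not tested.

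Along the chromosome, the difference between the lines was uneven. All 270 genes start between 6.05 and 103.5 Mb, the last of them Xist. From 0 to 20 Mb the median difference at 24 h was -0.0236 with 10 of 54 genes lower, and from 20 to 40 Mb it was -0.0277 with 6 of 36. From 40 to 60 Mb it was -0.0805 with 29 of 46 genes lower. From 60 to 80 Mb it was -0.0481 with 29 of 76. From 80 to 100 Mb, the band of Eda, it was -0.109 with 22 of 32, and in the last stretch up to Xist -0.0737 with 14 of 26. The 2 bands farthest from Xist held the smallest differences, and the largest lay in the band beside that of Xist.

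The response of SPOCmut to doxycycline followed the same bands, with medians of -0.0419, -0.0342, -0.103, -0.0563, -0.142 and -0.0801 from the first band to the last. WT changed by -0.156, -0.173, -0.242, -0.189, -0.268 and -0.256 in these bands. SpenKO medians stayed between -0.0141 and -0.00282. Over 269 genes without Xist, Spearman's rho between distance from Xist and the change was 0.304 in SPOCmut and 0.00430 in SpenKO, and 0.261 for the difference at 24 h. These are correlations over genes, which share libraries and neighbours and are not independent replicates. In SPOCmut longer genes had slightly lower changes (rho -0.185).

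Genes with larger WT changes tended to have larger SPOCmut changes. The WT libraries share no library with the SPOCmut or SpenKO responses. Over 269 genes, Spearman's rho between the SPOCmut and the WT change at 24 h was 0.582, and between the SpenKO and the WT change 0.165. With genes ordered into 5 groups of 53 or 54 by the WT change, the SPOCmut median was -0.135 in the group with the largest WT falls and -0.103, -0.0733, -0.0449 and -0.0208 in the next ones. The SpenKO medians were -0.0145, -0.0145, -0.00552, -0.00506 and -0.00438. SPOCmut was called lower than SpenKO at 24 h in 34 of 54 genes of the first group (63.0%). In the last group it was 5 of 54 (9.26%), and over all genes 40.7%.

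Set against WT, the median change over all genes was 33.3% of the WT median of -0.197 in SPOCmut and 4.75% in SpenKO. The clones gave 34.0% in C10, 34.4% in C2 and 29.3% in G1. Over the 192 genes with a WT drop of at least 0.15, the change in SPOCmut had a median of 36.9% of that in WT, with quartiles of 19.9% and 56.0%. The mean of SPOCmut at 24 h lay between those of WT and SpenKO in 224 genes, and nearer SpenKO in 202 and nearer WT in 68. A mean under 0.25 was seen at 24 h in 98 genes in WT, 19 in SPOCmut and 8 in SpenKO, of which 7, 5 and 6 were already under 0.25 without doxycycline. These shares differ widely between genes. The SPOCmut change of Mospd1 was 102% of the WT change, that of Nhsl2 64.1%, and that of Usp9x -1.13%.

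**Figure D4:**
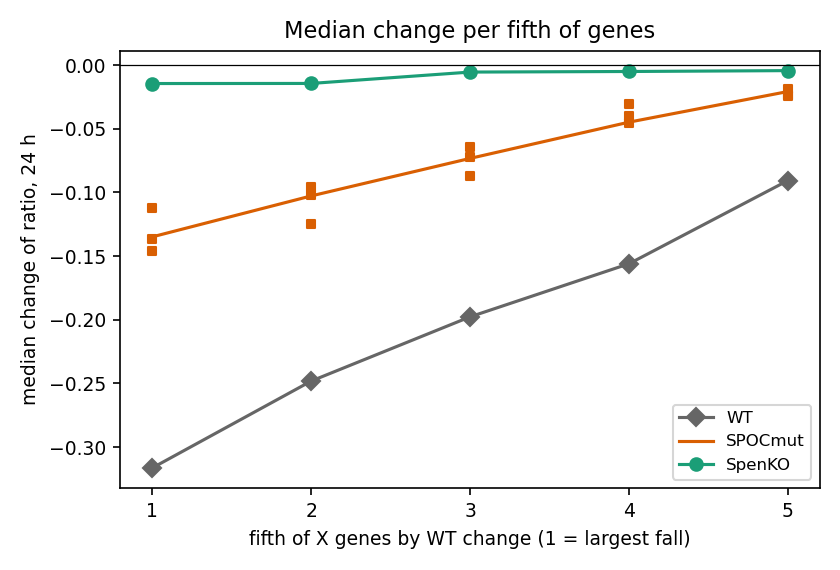
Median change of the allelic ratio at 24 h (y axis) in 5 groups of 53 or 54 X genes ordered by their WT change (x axis, 1 is the largest fall), for WT, SPOCmut (line, with squares for the 3 clones) and SpenKO. SPOCmut runs from -0.135 to -0.0208 alongside WT, and SpenKO stays between -0.0145 and -0.00438. The order was set by WT, so the slope of the WT line is given by construction.

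The 3 clones gave like median responses and a moderate correlation gene by gene. Their median change was -0.0672 in C10, -0.0678 in C2 and -0.0578 in G1, and the ratio was lower than in the clone's own control in 236, 228 and 234 genes. All 3 clones were lower in 188 genes (69.6%) and none in 5. The changes of any pair of clones correlated over 269 genes with a Spearman's rho of 0.507 to 0.557 and a Pearson's r of 0.443 to 0.528. A drop of at least 0.1 was seen in 106 genes in C10, 98 in C2 and 83 in G1.

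Per gene, the SD over clones at 24 h had a median of 0.0251, compared with 0.0199 without doxycycline. The widest were Nap1l2, with 0.25, 0.52 and 0.13 in C10, C2 and G1, then Slc25a43, Pja1, Dnase1l1 and Srpx. In Nap1l2, Slc25a43 and Srpx, clone C2 stood apart from the other clones, and no call of theirs was made. Without C2 at 24 h, the SPOCmut change of Nap1l2 was -0.153 and was called. The tightest were Ube2a and C330007P06Rik, whose ratio was 1 in every clone and which carry no information on silencing, then Xist, Bcap31 and Mcf2. Mcf2, an exchange factor gene, read 0.443, 0.443 and 0.446 in the clones and 0.494 and 0.454 in SpenKO. It fell by 0.0418 in SPOCmut (adjusted p = 0.00771), and its difference from SpenKO, -0.0299, was not called (adjusted p = 0.0685) except without the second SpenKO library, at -0.0496.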

How the data were processed

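The values deposited by the authors are a fraction (0 to 1), the allelic ratio of each gene. Tools named in the submitters' processing notes, with no role given, include STAR 2.4.2a, Bowtie2 2.3.2, featureCounts and edgeR, on build mm10. How genes were filtered for the table is not given in the sources used here. Deposited starts are printed as they stand (123 of 255 genes found by symbol in RefSeq start 1 base higher there).

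The 17 libraries were fitted in 1 limma model (limma 3.58.1, R 4.3.3) on raw ratios, with a mean per group, without a replicate block, and p-values were adjusted over 270 genes (Benjamini-Hochberg). Errors are SEs from limma. Columns marked Dox without a time were taken as 24 h. The fit was tested on simulated data. Replicates shared at most 1.11% of exactly equal values. SPOCmut libraries pair by clone name, though deviations of the same clone correlated at -0.0170, -0.113 and 0.148. The 24 h SPOCmut and SpenKO comparisons share libraries, so they are given side by side.

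Named genes are the 10 largest 24 h shortfalls without overlap, all higher genes, the 10 largest differences of response, the 5 smallest differences among genes with a WT fall of 0.15, the 5 widest and 5 tightest over clones, SpenKO calls, list extremes and 7 fixed genes. Some genes that meet these rules are not reported here. The comparison, lists and rules were chosen with earlier results of these data known. Alternatives are in the closing section.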

Additional observations from a re-analysis of the deposited data

Results flagged for a closer look

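The difference between the responses of SPOCmut and SpenKO to 24 h of doxycycline passed the interaction test (limma, adjusted p under 0.05) in 62 genes, all with the lower change in SPOCmut. The 10 largest were Smarca1 (-0.343), Mospd1 (-0.284), Zc4h2 (-0.279), Fam3a (-0.258), Nhsl2 (-0.244), Plxna3 (-0.231), Tex11 (-0.207), Maged1 (-0.206), Gspt2 (-0.20) and Pls3 (-0.191). At Smarca1 the SPOCmut change was -0.271, and the SpenKO mean was higher after doxycycline, which adds to the difference. The SpenKO means of Maged1 and Gspt2 were also higher after doxycycline. None of these SpenKO changes was called in the main fit or under any alternative.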

How the results depend on the processing

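No gene value that was called with all libraries and recomputed under the alternatives changed sign. The called list members Flna, Msn, Fhl1, Cd99l2, Zfp185, Med12, Dlg3 and Cask were not recomputed singly. The 24 h difference of medians ranged from -0.0537 to -0.0617. Genes lower in SPOCmut than SpenKO numbered 66 and genes higher 1 under Benjamini-Yekutieli adjustment, and 58 were lower by at least 0.1. Without 1 library each, 75 to 105 were lower and 1 to 3 higher. The SPOCmut response had 79 genes down by at least 0.1, and 1 higher with only its own libraries or on the logit scale (0 to 1 without a library). The SpenKO response had 0 genes lower with only its own libraries, under Benjamini-Yekutieli adjustment or with the replicate block, 5 with library weights and 1 without multicopy and overlapping genes (without a library, 0 to 2 lower and 0 to 1 higher). The difference of responses had 34 lower under Benjamini-Yekutieli adjustment, 41 to 58 without a library, and 1 higher with only its own libraries. Untreated lines differed in 1 gene, higher, with library weights, and in 0 to 1 without a library. The replicate block (clone or number) gave 135 lower genes for SPOCmut, 128 of them shared, and 53 for the difference of responses, 48 of them shared. The SpenKO numbers are only numbers (correlation of deviations 0.112). Leaving out the feeder genes was chosen after seeing the data. The cause of these shifts was not tested, except that fewer libraries or genes enter by construction. Depth is unknown, so which ratios rest on few reads cannot be read.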
